A study of Homo sapiens with 6 samples.

Results

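The RNA of 10 regulators of mitochondrial apoptosis from the BCL2 family, namely BCL2, BCL2L1, MCL1, BAX, BAK1, BBC3, PMAIP1, BCL2L11, BID and BAD, was examined in tumor core (TC) and tumor margin (TM) tissue. The genes were taken by name as the main members of each class of the family, with earlier results of these data known, and all 10 were found among the 60671 annotated genes of the expression table. The tumors were xenografts of wild-type MDA-MB-231 cells, an established human line of triple-negative breast cancer, which had been injected into the mammary fat pad of young adult female NSG mice, a strain without T, B and NK cells. RNA-seq was available for 3 TC and 3 TM samples. Both groups carried the same cells with no further treatment, so that the zone of the tumor was the only planned difference between them. Values are the deposited TPM, which scale transcript abundances, corrected for length, to a common sum per sample, and the 3 values of a zone are always given in the order of its replicates 1, 2 and 3. The labels do not say whether a TC and a TM sample with the same replicate number came from 1 animal.

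The members of this family bind one another on the mitochondrial outer membrane. BCL2, BCL-XL (encoded by BCL2L1) and MCL1 protect the cell by holding the pore-forming proteins BAX and BAK in check. The BH3-only proteins PUMA (BBC3), NOXA (PMAIP1), BIM (BCL2L11), BID and BAD sense stress and either occupy the protective proteins or activate BAX and BAK, after which cytochrome c leaves the mitochondria and caspases are activated. Much of this control acts on the protein, such as phosphorylation of BAD, cleavage of BID and rapid turnover of MCL1, and is not seen in RNA.

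Most markers listed for the line were well expressed, but EPCAM was low, at 3.66 to 6.02 TPM. The keratins KRT8, KRT18 and KRT19 and the intermediate filament gene VIM were abundant in all 6 samples (KRT19 at 214 TPM or more, VIM at 3797 TPM or more). Of the genes listed as absent or low, ESR1 and PGR were at or near 0 (at most 0.22 TPM). ERBB2 was between 22.3 and 24.1 TPM in TC and between 30.8 and 40.7 TPM in TM. Markers of mouse tissue differed between TM samples. The summed TPM of 11 skeletal muscle markers, led by DES and ACTA1, was between 6.29 and 8.75 in TC, but 219 in TM replicate 1, 564 in TM replicate 2 and 5.55 in TM replicate 3. The summed TPM of 10 fibroblast markers, led by COL1A1, was 68.5, 127 and 232 for TC against 486, 1028 and 93.7 for TM, although the fibroblast marker DCN was at 0 in every sample except TM replicate 1. The lists for endothelium (CDH5 highest), adipocytes (LPL highest) and erythroid cells (HBB highest) summed to at most 8.74 TPM in any sample, with EMCN, ADIPOQ, LEP, HBA2 and AHSP at 0 throughout. The macrophage list was between 95.2 and 108 TPM, most of it from CD68, with TYROBP at 0 in all samples. TM replicate 3 also stood apart in another way, since only 4 of the loci assembled outside the annotation were above 0 there, against 203 to 214 in the other samples. Mitochondrially encoded genes held 7.08% ± 1.53 of the TPM of TC samples and 10.3% ± 0.94 of that of TM samples (SD, n = 3, two-sided exact permutation test, p = 0.1, the smallest possible with 3 against 3).

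First, the levels of the members were set in order, which TPM allows between genes. The family was dominated by a few genes. BCL2L1 had the highest mean (212 TPM over the 6 samples), followed by MCL1 (163), BAX (124) and BAD (119), all above the 92nd percentile of the 13861 tested genes. PMAIP1 (36.1), BID (35.3) and BAK1 (27.7) formed a middle group, BCL2L11 (6.18) and BBC3 (4.95) were low, and BCL2 was near the detection filter at 1.25 TPM. Within each of these sets the ranges of neighbors in the order overlapped, whereas BAD and PMAIP1, BAK1 and BCL2L11, and BBC3 and BCL2 were apart in all samples. BCL2L1 and MCL1 together made up 47.6% to 57.4% of the summed TPM of the 10 genes, whereas BCL2, the gene that names the family, made up at most 0.205%.

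**Figure D1:**
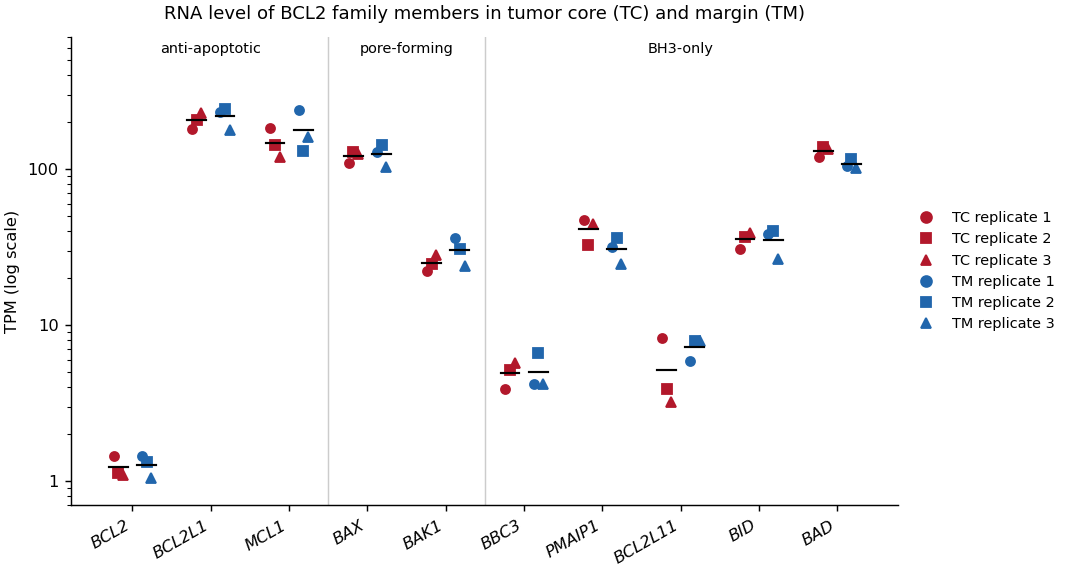
TPM (log axis) of the 10 BCL2 family members in each TC (red) and TM (blue) sample, with a black line at each group mean. BCL2 lies near 1 TPM, BCL2L1 lies between 178 and 243 TPM, and only for BAD do all TC samples lie above all TM samples.

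Next, the anti-apoptotic genes were compared between the zones. BCL2L1 (chromosome 20, 31664452 to 31723989, minus strand) was at 181, 208 and 228 TPM in TC and at 233, 243 and 178 TPM in TM. The lowest value was from TM replicate 3 and the highest from TM replicate 2, so the TM samples enclosed the TC samples. The difference on the log2(TPM + 1) scale, TC minus TM, was -0.077 (SE 0.16, limma adjusted p = 0.862). In bulk tissue such a value cannot part fewer cells of a kind from less RNA per cell. The 3 samples highest in BCL2L1 (TM replicates 2 and 1 and TC replicate 3) were also the highest in the fibroblast markers given above, and the part of host RNA in this was not tested. ABALON, a non-coding RNA gene on the opposite strand that shares 1424 exon bases with BCL2L1, was at 3.28, 4.52 and 6.56 TPM in TC and at 6.61, 8.28 and 0.25 TPM in TM. It was thus also highest in TM replicate 2 and lowest in TM replicate 3, and reads of the shared bases may not be told apart if strand was not used in counting.

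MCL1 (chromosome 1, 150574551 to 150579738, minus strand) varied more than the other abundant members. It was at 183, 142 and 119 TPM in TC and at 241, 131 and 162 TPM in TM. Replicate 1 was the highest of its group in both zones, and the groups overlapped. The mean level was 148 ± 32.4 TPM in TC and 178 ± 56.8 TPM in TM (SD, n = 3). The log2 difference of MCL1 was -0.24 (SE 0.24, limma adjusted p = 0.694), and it became 0.0045 without TM replicate 1. The highest sample was 2.02 times the lowest, against 1.36 times for BCL2L1.

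BCL2 (chromosome 18, 63123346 to 63320128, minus strand) was at 1.45, 1.12 and 1.10 TPM in TC and at 1.44, 1.33 and 1.05 TPM in TM. Both groups covered the same low range (log2 difference -0.032, SE 0.23, limma adjusted p = 0.97). At such a level the pseudocount of 1 shrinks any difference, and the sequencing depth behind the values is unknown.

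Neither pore-forming gene was called. BAX (chromosome 19, 48954815 to 48961798, plus strand) was at 109, 130 and 126 TPM in TC and at 129.7, 144 and 104 TPM in TM, and its log2 difference was -0.040 (SE 0.15, limma adjusted p = 0.933). As for BCL2L1, TM replicate 2 was the highest and TM replicate 3 the lowest. BAK1 (chromosome 6, 33572547 to 33580293, minus strand) was at 22.3, 24.6 and 28.2 TPM in TC and at 36.4, 30.6 and 23.8 TPM in TM. TM replicates 1 and 2 lay above all TC samples, but TM replicate 3 lay among them, and the log2 difference of -0.25 (SE 0.19, limma adjusted p = 0.593) was -0.41 without TM replicate 3 and became 0.064 when TM was represented by replicate 3 alone. TM replicates 1 and 2 were the samples with the high muscle markers, and the part of this in BAK1 was not tested. The processed copies BAK1P1 and BAK1P2 were at 0 in all samples apart from 0.28 TPM of BAK1P1 in TC replicate 3.

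Among the BH3-only genes, BAD had the smallest p-value of the members. This gene, whose protein binds BCL-XL and BCL2 while it is not phosphorylated, lies on chromosome 11 (64269830 to 64284704, minus strand). It was at 120.05, 139 and 134 TPM in TC and at 105, 116 and 101 TPM in TM. All TC samples were above all TM samples, although TC replicate 1 exceeded TM replicate 2 by less than the SD of the TC samples. The means were 131 ± 9.82 TPM in TC and 107 ± 7.43 TPM in TM (SD, n = 3), 1.22 times higher in TC. The log2 difference was 0.29 (SE 0.12, 95% interval 0.0042 to 0.57 before adjustment, limma unadjusted p = 0.0474), and it did not pass after adjustment over all tested genes (limma adjusted p = 0.303). The unadjusted p-value was between 0.0127 (quantile normalization) and 0.145 (without TC replicate 2) over the settings tried (limma). The sign was the same in all 18 settings, with adjusted p-values between 0.256 and 0.598 (limma). GPR137, a gene on the opposite strand that shares 404 exon bases with BAD, was at 20.96, 34.5 and 20.1 TPM in TC and at 31.97, 31.5 and 32.3 TPM in TM, with TC replicate 2 the highest sample and TC replicates 1 and 3 the lowest. As for BCL2L1, the level of BAD is uncertain to this extent if strand was not used in counting.

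PMAIP1, which encodes the MCL1-binding protein NOXA and is induced by several kinds of cell stress, lies on chromosome 18 (59899948 to 59904306, plus strand). It was at 47.4, 32.5 and 44.5 TPM in TC and at 31.6, 36.3 and 24.7 TPM in TM. TC replicates 1 and 3 were above all TM samples, but TC replicate 2 was below TM replicate 2. The means were 41.4 ± 7.91 and 30.8 ± 5.86 TPM (SD, n = 3), and the log2 difference was 0.41 (SE 0.20, limma adjusted p = 0.378). The difference was above 0 in all 18 settings, between 0.27 and 0.71.

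BCL2L11, which encodes BIM, an activator of BAX and BAK, lies on chromosome 2 (111119378 to 111168447, plus strand). It was at 8.29, 3.90 and 3.19 TPM in TC and at 5.87, 7.90 and 7.92 TPM in TM. TC replicate 1 was the highest of all samples, whereas TC replicates 2 and 3 were the lowest, so the group means of 5.13 ± 2.76 and 7.23 ± 1.18 TPM (SD, n = 3) rested on a divided TC group. The log2 difference was -0.51 (SE 0.32, limma adjusted p = 0.51) and ranged from -0.85 without TC replicate 1 (limma adjusted p = 0.218) to -0.28 without TC replicate 3. It was below 0 in all 18 settings. The long non-coding RNA gene MIR4435-2HG shares 727 exon bases with BCL2L11 on the opposite strand and was far more abundant, at 235, 213 and 303 TPM in TC and 172, 214 and 178 TPM in TM, so the level of BCL2L11 is uncertain if strand was not used in counting.

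BAD, PMAIP1 and BCL2L11 were the members whose sign held in all settings, and a stretch of their promoters is therefore shown. SP1, the transcription factor followed in the study, binds the GC box, and this box was searched for as GGGCGG on both strands in the windows of 300 bases that reach from 250 before to 50 after a transcription start (RefSeq, GRCh38.p14). Each stretch is the 30 bases before the start with the most GC boxes in the first window listed for its gene. It was thus picked for its boxes. The stretches are written along the gene, 5′ to 3′, upstream of the start, with GC boxes in capitals.
BAD, chr11:64284786-64284815, minus strand: gatccggcggggGGGCGGggccgggccggg
PMAIP1, chr18:59899890-59899919, plus strand: GGGCGGggacagGGGCGGggacagGGGCGG
BCL2L11, chr2:111120819-111120848, plus strand: gccgGGGCGGgacctagcggGGGCGGggtc
The PMAIP1 stretch, 106 to 77 bases before the start, holds 3 GC boxes in a row with the same 6 bases between them. The BCL2L11 stretch, 95 to 66 bases before the start, holds 2 boxes and the BAD stretch, 111 to 82 bases before the start, holds 1. The BCL2L11 stretch lies before a RefSeq start but within the gene span given above, which is from GENCODE v29. Of 15 windows listed for 9 members (all but MCL1), some of which overlap, 11 held the box, against 45% of all 35116 windows. Among members whose sign turned, windows held up to 4 boxes for BID, 2 each for BAX and BAK1 and up to 1 for BCL2L1. Those of BCL2 and BBC3 held 0. A link between the boxes and the differences was not tested. The median GC content was 68.7% in the windows of the members and 58.7% in all windows, and its part in the count of windows was not tested.

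BID and BBC3 showed no difference larger than the spread between samples. BID (chromosome 22, 17734138 to 17774770, minus strand), which is cleaved by caspase-8 and so joins the death receptors to the mitochondria, was at 30.7, 36.7 and 39.0 TPM in TC and at 38.1, 40.4 and 26.6 TPM in TM (log2 difference 0.032, SE 0.19, limma adjusted p = 0.964). BBC3 (chromosome 19, 47220822 to 47232766, minus strand), which encodes PUMA, was at 3.88, 5.19 and 5.69 TPM in TC and at 4.17, 6.62 and 4.16 TPM in TM (log2 difference -0.0028, SE 0.25, limma adjusted p = 0.996). BID shared with BCL2L1 and BAX a top value in TM replicate 2, a bottom value in TM replicate 3 and the next lowest value in TC replicate 1.

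All members were then read against the whole transcriptome. At a limma adjusted p-value under 0.05, 0 of the 10 members were called, against 19 of 13861 tested genes (0.137%). Without adjustment, 1 member (BAD) had a limma p-value under 0.05 with a higher level in TC, as had 1.93% of all tested genes, and 0 members had one with a lower level in TC, as had 14.2%. The groups did not overlap in 1 member that was higher in TC (3.28% of tested genes) and in 0 members that were lower in TC (18.9% of tested genes). A count of 1 among 10 genes is too small to set the family apart from these shares. The median log2 difference of the members was -0.036 against -0.14 for all tested genes. The shift of all genes depends on the scaling of the samples, and the signs of some members did too. The differences were below 0 for 7 members and above 0 for 3 as deposited, and below 0 for 3 and above 0 for 7 after rescaling by median-of-ratios factors, when the median of all genes was 0.049. The members that turned were BCL2, BCL2L1, BAX and BBC3. BAD and PMAIP1 then both had an unadjusted p-value under 0.05 (limma, 0.0131 and 0.0146), with log2 differences of 0.49 and 0.62. Neither was called (limma adjusted p = 0.26 and 0.266). After this rescaling 1873 of all 13861 tested genes passed the same unadjusted threshold (limma), and 49.6% of those 1873 were lower in TC. The share of 1.93% given above for higher genes is from the deposited scale and does not apply to this pair. TM replicate 3 was the lowest of all samples for 6 of the 10 members. When TM replicates 1 and 2, the samples rich in muscle and fibroblast markers, were both left out, replicate 3 alone stood for TM. The differences were then above 0 for 8 members and below 0 for 2, with a median of all tested genes of -0.064.

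**Figure D2:**
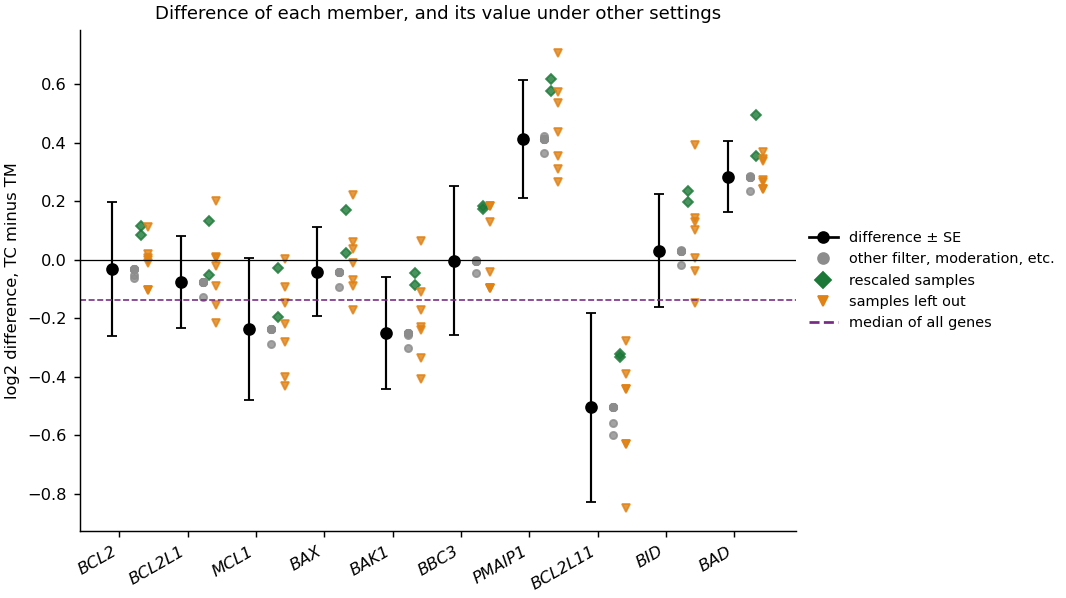
Log2 difference (TC minus TM, log2(TPM + 1) scale) of each member with its standard error (black), and the values under other settings (grey), after rescaling of the samples (green) and with samples left out (orange). BAD and PMAIP1 stay above 0 and BCL2L11 below 0 throughout, while the other 7 members cross 0 under a rescaling or without certain samples, and the dashed line marks the median of all tested genes at -0.14.

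Because a ratio of TPM within 1 sample does not depend on how samples are scaled, the balance between the classes was described by ratios. No test was applied to them. The summed BH3-only RNA came to 0.575, 0.618 and 0.651 times the summed anti-apoptotic RNA in TC, against 0.389, 0.551 and 0.483 times in TM. All TC samples were above all TM samples, with means of 0.615 ± 0.0379 and 0.474 ± 0.0817 (SD, n = 3). The gap was smallest between TC replicate 1 and TM replicate 2. Most of the BH3-only sum came from BAD, and without BAD (a comparison chosen after the values were seen) the ratios were 0.247, 0.223 and 0.265 in TC and 0.168, 0.243 and 0.186 in TM, which overlapped.

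By contrast, the ratio of pore-forming to anti-apoptotic RNA stood at 0.359, 0.439 and 0.442 in TC and 0.349, 0.464 and 0.375 in TM. Both groups covered the same range. The ratio of BAX to BCL2L1, a pore former and its abundant restraint, stood at 0.601, 0.623 and 0.552 in TC and 0.556, 0.591 and 0.584 in TM. It was the steadiest of the 4 ratios between classes or main members, although the highest sample was 1.38 times the lowest for BAX and 1.36 times for BCL2L1. The ratio of MCL1 to BCL2L1 was the least steady, at 1.01, 0.685 and 0.523 in TC and 1.03, 0.539 and 0.909 in TM. Both genes were thus near parity in replicate 1 of each zone, and BCL2L1 was the more abundant in the other samples. Of 6 ratios chosen after the values were seen, the 3 of BAD to BAX, to BCL2L1 and to the anti-apoptotic sum did not overlap, and the 3 of BH3-only RNA without BAD to the anti-apoptotic sum, of BH3-only RNA to MCL1 and of PMAIP1 to MCL1 did. The ratio of BAD to BAX stood at 1.10, 1.07 and 1.07 in TC and 0.812, 0.805 and 0.975 in TM, and that of PMAIP1 to MCL1 at 0.259, 0.228 and 0.373 in TC and 0.131, 0.277 and 0.152 in TM.

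**Figure D3:**
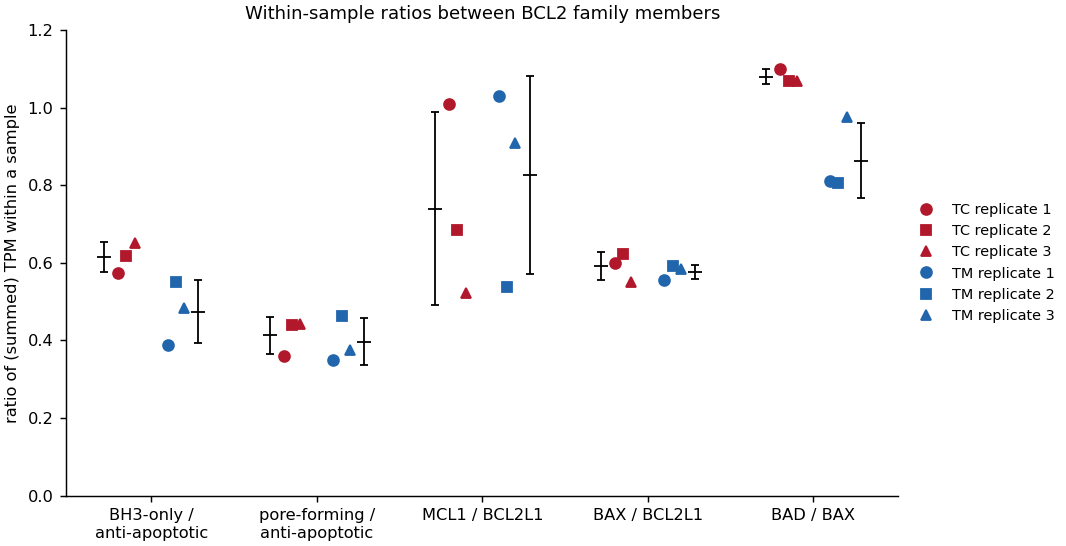
Ratios of TPM within each TC (red) and TM (blue) sample, with the mean and SD of each group in black. BH3-only to anti-apoptotic is higher in every TC sample, as is BAD to BAX, a ratio chosen after the values were seen. BAX to BCL2L1 stays between 0.552 and 0.623. MCL1 to BCL2L1 ranges from 0.523 to 1.01 in TC and from 0.539 to 1.03 in TM.

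Finally, 47 other genes of the pathway were examined, of which 43 passed the filter on low values. The BCL2 family genes BCL2L10, HRK, BCL2L14 and BCL2L15 did not pass, with at most 0.35 TPM. None of the 43 genes was called (limma, smallest adjusted p = 0.0813), 2 had an unadjusted p-value under 0.05 with a higher level in TC (BNIP3 and DDIT3, against 1.93% of all tested genes) and 2 with a lower level (HUWE1 and CASP2, against 14.2%). The median log2 difference was -0.11, against -0.14 for all tested genes. The higher genes were 1 of 9 other family genes and 1 of 6 regulators, and the lower genes were 1 of 7 caspases and APAF1 and 1 of 6 regulators. None was among 8 mitochondrial proteins, 5 inhibitors of apoptosis or 8 death receptors and adaptors. These counts are too small to set any class apart from the shares over all genes.

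The gene with the smallest p-value was HUWE1, which encodes a ubiquitin ligase that marks MCL1 protein for degradation. HUWE1 was at 27.6, 28.6 and 23.6 TPM in TC and at 49.3, 49.0 and 42.7 TPM in TM. All TC samples were below all TM samples, as for 18.9% of all tested genes. The log2 difference was -0.80 (SE 0.15, limma adjusted p = 0.0813, between 0.0653 and 0.291 over the settings). It was -0.60 after median-of-ratios rescaling. CASP2, a caspase that can cleave BID, was at 11.02, 9.53 and 6.36 TPM in TC and at 13.7, 14.7 and 19.0 TPM in TM (log2 difference -0.77, SE 0.24, limma adjusted p = 0.174). BNIP3, a hypoxia-induced relative of the BH3-only proteins that acts mainly in mitophagy, was at 195, 194 and 159.9 TPM in TC and at 111, 99.6 and 156 TPM in TM (log2 difference 0.60, SE 0.18, limma adjusted p = 0.168). TM replicate 3 lay close to TC replicate 3 for this gene. DDIT3, which encodes the stress factor CHOP, was at 33.6, 36.4 and 33.7 TPM in TC and at 21.4, 26.4 and 31.1 TPM in TM (log2 difference 0.40, SE 0.17, limma adjusted p = 0.301). The difference of DDIT3 was 0.26 without TM replicate 1 (limma unadjusted p = 0.168) and 0.15 without TM replicates 1 and 2, and that of BNIP3 was 0.22 without the latter.

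Downstream of the mitochondria, cytochrome c (CYCS) was at 91.0 to 118 TPM in TC and at 64.6 to 118 TPM in TM, and its partners in the apoptosome were lower, with APAF1 at 4.43 to 9.68 and 5.37 to 10.7 TPM and CASP9 at 9.85 to 18.1 and 12.7 to 16.4 TPM. The log2 differences of CYCS, APAF1 and CASP9 were 0.14, -0.084 and -0.25 (limma adjusted p = 0.827, 0.935 and 0.692). The caspase inhibitor XIAP was most scattered, at 21.99, 16.3 and 13.5 TPM in TC and 21.4, 13.0 and 6.05 TPM in TM (log2 difference 0.46, SE 0.40, limma adjusted p = 0.636). TM replicate 3 decided this value, which was 0.016 without it, 0.85 without TM replicate 1 and 1.35 without TM replicates 1 and 2. On the death receptor side, CASP8 and its inhibitor CFLAR had log2 differences of -0.33 and -0.23 (limma adjusted p = 0.593 and 0.597). With 1 sample left out, CASP8 ranged from -0.60 (without TC replicate 1, limma unadjusted p = 0.0182) to -0.15 (without TC replicate 3), CFLAR from -0.36 (without TC replicate 3) to -0.11 (without TM replicate 2) and CASP9 from -0.52 (without TC replicate 2) to -0.11 (without TC replicate 3). Values of each of these genes overlapped between the zones.

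**Figure D4:**
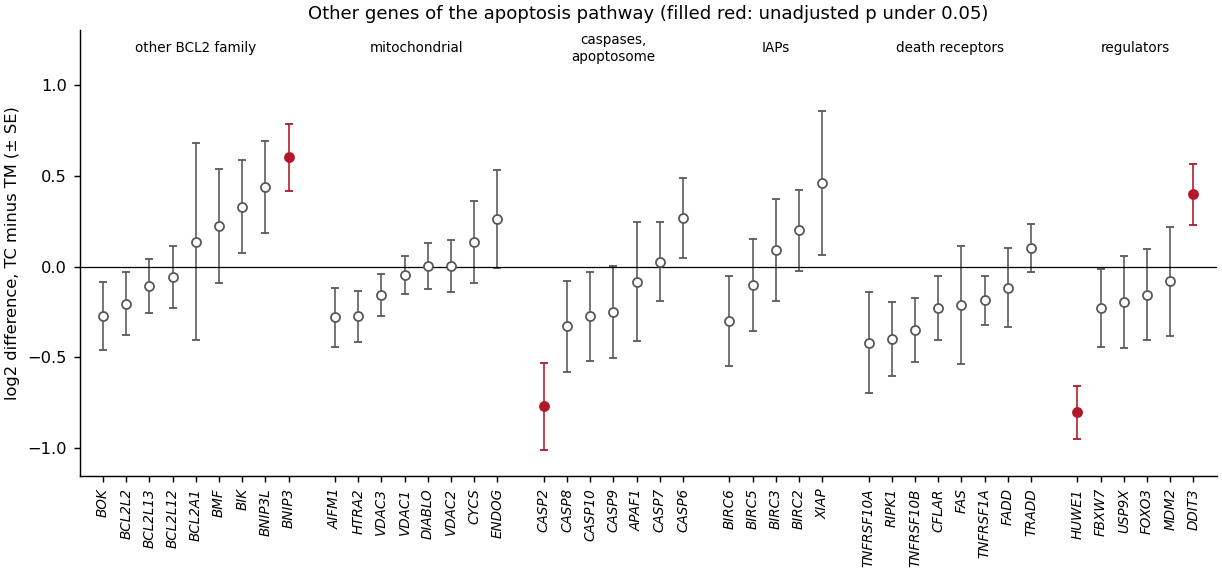
Log2 difference (TC minus TM) with its standard error for the 43 other genes of the apoptosis pathway that were tested, by class. The 4 genes below an unadjusted p of 0.05 (BNIP3, CASP2, HUWE1 and DDIT3) are filled in red, and 0 genes passed after adjustment.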

How the data were processed

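RNA-seq was performed on 3 TC and 3 TM samples. The authors trimmed paired reads with SeqPrep and Sickle, aligned them with HISAT2, assembled them with StringTie and quantified genes with RSEM, and the submitters' processing notes name hg38. The annotation release and any step that parts mouse from human reads were not given in the sources used here. Alignment is described as run with read orientation, but whether the counting used strand is not. The deposited values are TPM (sum of 1000000 in each sample, 994381 in TM replicate 3), so the sequencing depth is unknown and precision was judged from replicates alone. The study describes 3 mice per group, and the labels do not tie samples to animals. No other columns of values were present.

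Values were transformed as log2(TPM + 1). A gene had to reach 1 TPM in 3 or more samples, and the 13861 that did were tested by limma 3.58.1 in R 4.3.3 with a mean-variance trend and Benjamini-Hochberg adjustment over all of them, since the count model of the study could not be applied to TPM. Fold changes are on the log2(TPM + 1) scale, which understates those of low genes. The fit was tested on simulated data, with changes larger than any difference of the members. That test does not show how well differences of their size are found. Of 117 genes in the hand-written lists, 116 were found. Gene positions and shared exons are from GENCODE v29 (GRCh38), and 96.3% of annotated genes are in it. The 10 members and all lists were chosen with earlier results of these data known. Named genes are all members, 6 fixed nodes of the pathway (CYCS, APAF1, CASP9, CASP8, XIAP and CFLAR; some other nodes are not reported here), pathway genes with an unadjusted p-value under 0.05 and the highest marker of each host list. The other genes named (neighbors on the genome, genes at 0 and markers of the line) were chosen after their values were seen or were listed as markers. The 17 alternatives were another pseudocount (0.1), no filter, a mean TPM of 5 or more, quantile normalization, median-of-ratios rescaling, a block for the replicate number, removal of mitochondrially encoded genes, moderation without a trend or robust, inclusion of loci outside the annotation, each sample left out in turn, and TM replicates 1 and 2 left out together. Figures were drawn with matplotlib 3.10.9.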

Additional observations from a re-analysis of the deposited data

How the results depend on the processing

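The number of members called was 0 in the reported fit and in all 17 alternatives, and the log2 differences of BAD, PMAIP1 and BCL2L11 kept their sign in all of them. Without TC replicate 1, BCL2L11 had an unadjusted p of 0.012 (limma adjusted p = 0.218). The count of all genes called (19) was unstable, with 7 for a pseudocount of 0.1, 1 without a filter, 4 after quantile normalization, 6 after median-of-ratios rescaling, 12 without a trend, 47 with robust moderation, 195 without TM replicates 1 and 2, where the single TM sample is assumed to vary like the TC samples, and 1 to 17 with 1 sample left out (1 without TC replicate 3 or TM replicate 1, 4 without TC replicate 1, 9 without TM replicate 2). Deviations from the group means of same-numbered samples correlated at 0.211, -0.121 and -0.165 over genes. Those of samples with different numbers correlated at -0.232 to 0.317. So few values, which also carry the host tissue of each sample, cannot decide whether same-numbered samples came from 1 animal. With the replicate as a block 1 gene and 0 members were called and 1 pathway gene was higher in TC without adjustment.

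Quantile normalization turned the log2 differences of BCL2 (0.12), BAX (0.023), BBC3 (0.19) and APAF1 (0.10). Median-of-ratios rescaling turned BCL2 (0.084), BCL2L1 (0.13), BAX (0.17), BBC3 (0.17) and APAF1 (0.099), and removal of mitochondrially encoded genes turned BID (-0.019). Without TM replicates 1 and 2 the median of the members moved to 0.19 and BCL2 (0.11), BCL2L1 (0.20), BAX (0.22), BAK1 (0.064) and BBC3 (0.19) turned. With 1 sample left out, the log2 difference ranged from -0.10 to 0.021 for BCL2, -0.22 to 0.011 for BCL2L1, -0.43 to 0.0045 for MCL1, -0.17 to 0.061 for BAX, -0.097 to 0.18 for BBC3, -0.15 to 0.14 for BID, -0.12 to 0.31 for CYCS and -0.30 to 0.20 for APAF1. Apart from the scalings and the samples removed, the causes were not tested. Pathway genes with an unadjusted p-value under 0.05 numbered 4 lower without a filter (2 as reported) and 1 higher without mitochondrially encoded genes or without a trend (2 as reported), and with 1 sample left out 2 to 4 lower (4 without TC replicate 1 or TM replicate 3) and 1 to 2 higher (1 without TC replicate 1, TC replicate 2 or TM replicate 2). The depth behind TPM is unknown, so no limit from counts can be given for BCL2, BBC3 or BCL2L11.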
